A study of Rattus norvegicus with 24 samples.

Results

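The GABA-A receptor subunit genes Gabra2, Gabra3, Gabra4, Gabra5, Gabrb1, Gabrb2 and Gabrd were followed on 24 Affymetrix rat expression arrays of female rat tissue labelled midbrain. They were taken as every probe set (a group of short oligonucleotides that measures 1 transcript) whose single gene symbol in the platform annotation is one of these 7 names. This gave 10 probe sets of the 31099 on the array, and all 10 were among the 27035 kept by a filter on dim probe sets. Gabrb2 had 2 probe sets, Gabrd had 3 and the other genes had 1 each. Where a gene had several, the one with the highest mean signal is called the main probe set.

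The rats were adult Long-Evans females, 50 to 60 days old. There were 6 arrays of ovariectomized and adrenalectomized (OVX/ADX) rats, 6 of ovariectomized (OVX) rats and 12 of gonadally intact rats in proestrus. The test came 10 days after surgery in OVX/ADX and OVX rats, all of which were given estradiol benzoate (10 μg, 44 h earlier), so that no array shows gland removal without estradiol. The intact arrays form a number-named set of 6 and an Intact-named set of 6, whose titles contain the word Intact. Titles of the number-named set are bare numbers, as are those of the OVX/ADX arrays. Titles of the Intact-named and the OVX arrays begin with number codes that differ between these sets, and the labels do not explain them. Each of these 4 sets holds 3 arrays labelled paced, from females that mated where they could leave the male, and 3 labelled chamber-exposed, from females that were only placed in the mating chamber. The labels do not say whether an array holds 1 rat, so p-values measure the spread between arrays. The paper describes 6 intact rats in the mating test, where the series holds 12 intact arrays. How the number-named and Intact-named sets relate is not stated, so comparisons that use both take their arrays as independent without a check.

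GABA-A receptors are chloride channels of several subunits, opened by the transmitter GABA, and they inhibit neurons. Pairs of α and β subunits usually join a γ or a δ subunit, and the kind of α subunit sets where in the cell and the brain the receptor is found. Neurosteroids such as allopregnanolone, a metabolite of progesterone, bind the receptor and raise its current. Receptors with the δ subunit, which lie outside synapses and carry a lasting current, respond strongly to them. In the forebrain δ is joined mostly to α4, which is plentiful in thalamus, and in cerebellar granule cells to α6. The α5 subunit is best known from hippocampus, α2 from cortex, hippocampus and striatum, and α3 from monoamine neurons and the reticular thalamus.

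The promoters of 6 of the 7 genes were found in the RefSeq table of 300 bases around each gene start (build GRCr8, 250 bases before to 50 after the start). Those of Gabrb1 and Gabrb2 are shown because these paralogs share sequence there, and that of Gabrd because receptors with its δ subunit respond strongly to neurosteroids. In Gabrb1 and Gabrb2 the capitals mark the core CGCATGCG of the site of the transcription factor NRF-1, which reads the same on both strands. In Gabrd they mark GC boxes (GGGCGG on either strand), of which 3 overlap by 1 base each.
Gabrb1 promoter, chr14:36902844-36903143, minus strand: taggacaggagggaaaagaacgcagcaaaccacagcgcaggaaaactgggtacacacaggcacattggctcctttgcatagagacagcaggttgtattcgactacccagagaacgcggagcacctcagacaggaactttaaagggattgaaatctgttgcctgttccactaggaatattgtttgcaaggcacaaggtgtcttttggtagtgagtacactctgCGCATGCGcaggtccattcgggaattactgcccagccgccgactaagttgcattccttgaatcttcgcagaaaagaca
Gabrb2 promoter, chr10:27439543-27439842, plus strand: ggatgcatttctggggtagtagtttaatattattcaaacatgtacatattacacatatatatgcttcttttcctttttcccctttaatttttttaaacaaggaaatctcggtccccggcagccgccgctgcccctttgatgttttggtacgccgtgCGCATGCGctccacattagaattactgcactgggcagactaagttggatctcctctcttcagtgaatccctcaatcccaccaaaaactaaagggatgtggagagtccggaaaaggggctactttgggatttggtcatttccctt
Gabrd promoter, chr5:171252660-171252959, minus strand: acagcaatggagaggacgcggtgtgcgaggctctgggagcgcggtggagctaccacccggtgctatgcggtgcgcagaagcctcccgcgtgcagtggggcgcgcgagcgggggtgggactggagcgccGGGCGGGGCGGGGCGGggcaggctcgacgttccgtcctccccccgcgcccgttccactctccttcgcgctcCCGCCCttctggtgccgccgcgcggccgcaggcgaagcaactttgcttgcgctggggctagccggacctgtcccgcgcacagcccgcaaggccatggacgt

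The NRF-1 core occurred in 1.66% of 33469 promoters of this length, and among the members only in Gabrb1 and Gabrb2. These promoters also shared the runs gaattactgc and gactaagttg, which lay in 13 and 5 of all promoters, and in both genes they followed the NRF-1 core in the same order. The Gabrd promoter held 4 GC boxes and was 73.7% G or C, with 40 CpG dinucleotides. Those of Gabra4 and Gabra5 were 70.7% and 76.3% G or C with 1 GC box each, while 33.1% of all promoters held a GC box and the median was 51.7% G or C. The Gabra3 promoter was 39.3% G or C, had no CpG and held the sequence TATAAA on the opposite strand, present on either strand in 14.2% of promoters. None of the 6 held the cAMP response element TGACGTCA (1.83% of promoters), the core TGTTCT from within the progesterone and glucocorticoid receptor element (20.7%) or the palindromic estrogen response element (0.0269%), on either strand, in this window.

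The lowest deposited log2 signal per array fell in 3 separate ranges, and these were taken as 3 normalization runs. The runs are thus inferred from the signals. The first held number-named arrays, the second OVX and Intact-named arrays together, and the last OVX/ADX arrays. Levels were therefore tested only within a run. Across runs, values were set side by side after quantile normalization of the 24 arrays, as a description with no test. The files carry no detection calls, so that a low signal may be background. Of 11 markers of midbrain dopamine neurons, the median lay between the 67.7th and 87.2nd percentile of the array on OVX/ADX and number-named arrays, and between the 41.9th and 69.1st on OVX and Intact-named arrays. Markers of cortex and hippocampus lay between the 49.9th and 65.2nd percentile on OVX/ADX and number-named arrays and between the 75.4th and 85.9th on OVX and Intact-named arrays. On 10 of the 12 OVX and Intact-named arrays, the defining dopamine neuron genes Th and Slc6a3 lay between percentiles 29.8 and 37.7 and between 24.7 and 33.7, while Slc17a7, the glutamate transporter of cortex and hippocampus, lay between 92.8 and 99.3 on all 12. The markers of these 10 arrays thus go against the label midbrain. Of the remaining arrays, OVX-4 had Th at percentile 71.2 and Slc6a3 at 77.0, and Intact-1 had them at 51.4 and 55.3. Hypothalamus markers lay between percentiles 72.9 and 91.9 on OVX/ADX and number-named arrays and between 34.2 and 53.0 on OVX and Intact-named arrays, and anterior pituitary markers lay between 35.5 and 98.1 on OVX/ADX and number-named arrays, above every OVX and Intact-named array. The 3′ over 5′ log2 difference of the beta-actin control, a measure of RNA and labelling quality, was 0.97 to 1.13 on OVX/ADX and number-named arrays and 1.5 to 3.40 on OVX and Intact-named arrays. In bulk tissue, fewer cells of a type and less RNA per cell cannot be told apart. Array OVX-1 stood apart in Gabra6 (α6, made by cerebellar granule cells), at 8.18, where the other OVX arrays had 4.48 to 4.94.

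**Figure D1:**
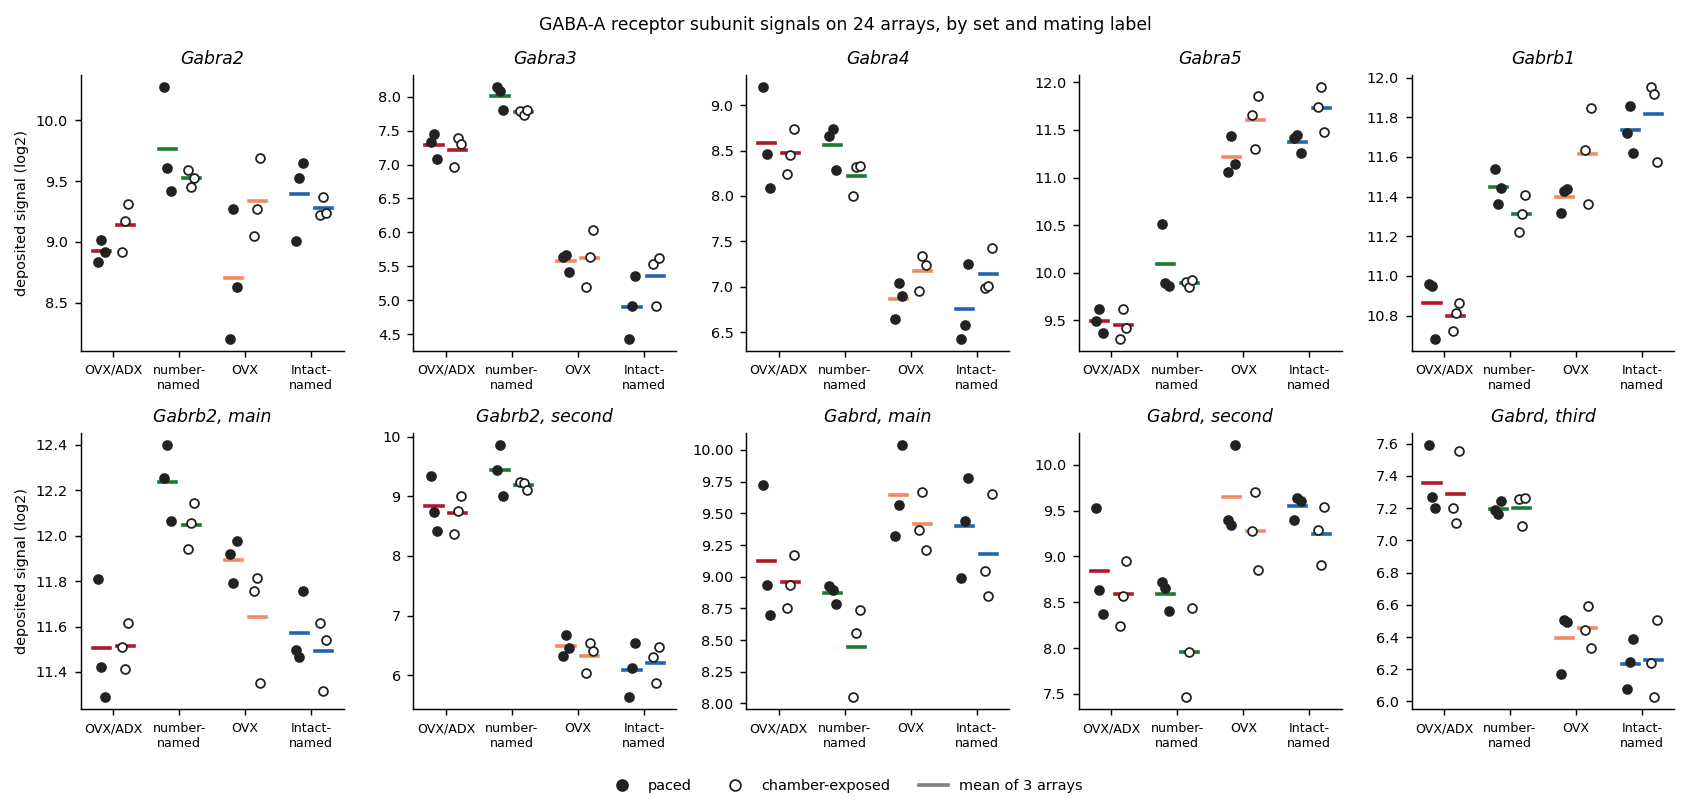
Deposited log2 signal (vertical axis) of each GABA-A subunit probe set on 24 arrays, by set along the horizontal axis, with filled points for paced arrays, open points for chamber-exposed arrays and lines for means of 3 arrays. Gabra3 and the second Gabrb2 probe set are high on OVX/ADX and number-named arrays, and Gabra5 on OVX and Intact-named arrays.

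Across runs, where normalization, regional markers and 3′ over 5′ quality cannot be told apart, members separated the sets about as often as all probe sets did. Gabra3 and Gabra4 were higher, and Gabra5 lower, on the number-named than on the Intact-named intact arrays and on the OVX/ADX than on the OVX arrays. Gabra2 overlapped in both pairs, and Gabrb1 did after quantile normalization but lay lower as deposited and with array medians subtracted. Of the 10 probe sets, 5 lay wholly higher and 2 wholly lower on number-named than on Intact-named arrays, where 30.6% and 33.1% of all probe sets did. Between OVX/ADX and OVX arrays 4 lay higher and 1 lower, where 30.7% and 32.4% of all did. The median difference of the 10 was 0.49 in the intact pair and 0.32 in the OVX/ADX and OVX pair, beside −0.03 and −0.02 over all probe sets. With array medians subtracted in place of quantile normalization, the counts were 4 higher and 4 lower in the intact pair, beside 26.4% and 38.1% of all probe sets, and 4 higher and 2 lower in the other, beside 24.9% and 39.5%.

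Among the α subunits, Gabra3 had the largest difference in both pairs after quantile normalization. Between OVX/ADX and OVX arrays that of Gabra5 was larger as deposited (−1.94, against 1.65 for Gabra3). It was larger with array medians subtracted too (−1.81 against 1.78). Signals of Gabra3 on number-named arrays were 7.72 to 8.14 (median 7.80), against 5.14 as the median of the Intact-named arrays, which ran over 4.43 to 5.63. On OVX/ADX arrays it was 6.96 to 7.44 (median 7.31), against 5.20 to 6.04 (median 5.63) on OVX arrays. No array of one run reached the level of the other, and after quantile normalization the differences were 2.45 (5.46-fold) and 1.80 (3.48-fold). Within the arrays, Gabra3 stood between percentiles 49.7 and 62.0 on OVX/ADX and number-named arrays and between 14.1 and 34.5 on OVX and Intact-named arrays.

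Gabra4, the usual partner of δ in forebrain, was 8.0 to 8.73 on number-named arrays (median 8.32), against 6.43 to 7.42 on Intact-named arrays (median 7.0). It was 8.09 to 9.20 on OVX/ADX arrays (median 8.46), against 6.65 to 7.34 on OVX arrays (median 6.99). The groups did not overlap, and the quantile-normalized differences were 1.22 (2.33-fold) and 1.77 (3.40-fold).

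Gabra5 ran the other way. It was 9.86 to 10.51 on number-named arrays (median 9.90), against 11.26 to 11.95 on Intact-named arrays (median 11.47). On OVX/ADX arrays it was 9.31 to 9.62 (median 9.46), against 11.06 to 11.86 on OVX arrays (median 11.36). All arrays of one run were below all of the other, with quantile-normalized differences of −1.50 (2.84-fold lower) and −1.47 (2.77-fold lower). Gabra2 was 9.42 to 10.27 on number-named and 9.01 to 9.65 on Intact-named arrays, and 8.84 to 9.31 on OVX/ADX and 8.20 to 9.69 on OVX arrays. These ranges overlapped, and Gabra2 thus showed no split between the runs.

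Of the β subunits, Gabrb1 was 11.22 to 11.54 on number-named and 11.58 to 11.95 on Intact-named arrays, and 10.68 to 10.96 on OVX/ADX and 11.32 to 11.85 on OVX arrays. The deposited ranges were apart, but after quantile normalization they overlapped, with differences of −0.29 and −0.18. It stood between the 95.4th and 97.9th percentile on every array. The main Gabrb2 probe set stood between the 95.9th and 98.9th percentile on every array. Its quantile-normalized difference was 0.74 in the intact pair, with no overlap, where array medians subtracted gave 0.37 with overlap. Between OVX/ADX and OVX arrays it was 0.26 with overlap, and the sign turned to −0.26 as deposited and −0.13 with array medians subtracted.

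The second Gabrb2 probe set gave a different picture. It was 9.01 to 9.85 on number-named arrays and 5.64 to 6.54 on Intact-named arrays, and 8.37 to 9.34 on OVX/ADX arrays and 6.05 to 6.68 on OVX arrays. The quantile-normalized differences were 2.97 (7.82-fold) and 2.64 (6.23-fold), against 1.67-fold and 1.19-fold for the main probe set of the same gene. The second probe set was designed on a RefSeq mRNA and the main one on an expressed sequence tag. Over 609 genes with both kinds of probe set, the RefSeq one had the more positive difference in 68.3% of genes between number-named and Intact-named arrays, by a median of 0.52, where that of Gabrb2 was 2.23. Between OVX/ADX and OVX arrays the share was 68.1%, the median 0.48 and the value of Gabrb2 2.38. Gabra3, Gabra4 and Gabrb1 were measured only by RefSeq probe sets, and Gabra2 and Gabra5 only by expressed sequence tags. The 3′ over 5′ difference of the Gapdh control, −0.17 to −0.08 on OVX/ADX and number-named arrays and 0.33 to 1.34 on the others, moved with the same split, and its part in these differences was not tested.

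The 3 Gabrd probe sets did not give the same direction. On number-named against Intact-named arrays, the main one differed by −0.68 with overlap (8.05 to 8.92 and 8.84 to 9.78 as deposited), and the second by −1.18 with none (7.47 to 8.72 and 8.90 to 9.64). The third was higher by 0.68 with none (7.09 to 7.26 and 6.03 to 6.51). Between OVX/ADX and OVX arrays the differences were −0.10, −0.38 and 1.06, and only the third did not overlap. The second is the RefSeq probe set of Gabrd. A direction of Gabrd between the sets is therefore not settled by these probe sets.

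**Figure D2:**
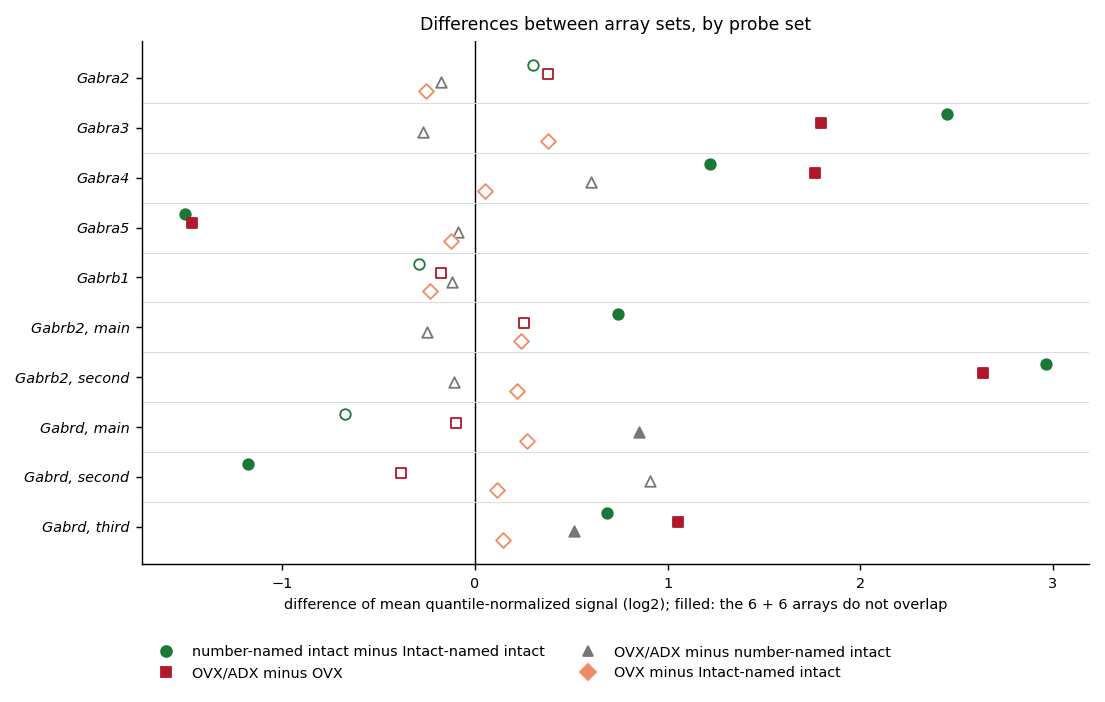
Difference of mean quantile-normalized log2 signal (horizontal axis) between pairs of array sets, for each GABA-A subunit probe set (vertical axis), with filled symbols where the 6 arrays of one set do not overlap the 6 of the other. Gabra3, Gabra4 and the second Gabrb2 probe set lie to the right in the 2 pairs that cross runs of different regional markers, and Gabra5 lies to the left.

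Between OVX/ADX and number-named intact arrays, the main and the third Gabrd probe sets lay higher on OVX/ADX arrays after quantile normalization. The differences were 0.85 (8.70 to 9.73 on OVX/ADX and 8.05 to 8.92 on number-named arrays as deposited) and 0.52, and the second Gabrd probe set gave 0.91 with overlap. All 3 Gabrd probe sets thus had the same sign here. Thalamus markers were higher too, in 5 of 6 with a median of 0.45, as were all 7 hypothalamus markers (median 0.40), while 10 of 11 dopamine neuron markers (median −0.46) and all 7 anterior pituitary markers (median −1.76) were lower. Their part in the Gabrd differences was not tested. Gabra4 differed by 0.60 with overlap, and the other members by −0.27 to −0.09. Of all probe sets, 23.5% lay wholly higher and 21.6% wholly lower in this pair. As deposited, with a median over all probe sets of −0.39, no member lay wholly higher and 5 lay wholly lower, beside 5.41% and 62.4% of all probe sets (Gabra2, Gabra3, Gabra5, Gabrb1 and the main Gabrb2 probe set).

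The only comparison of gland groups within 1 run was that of OVX against Intact-named intact arrays. The number codes that open their titles differ as well, so code and gland group cannot be told apart here. None of the 10 probe sets passed an adjusted p of 0.05 (limma with the mating label as a term, Benjamini-Hochberg over 27035 probe sets), where 1.44% of all did. At an unadjusted p under 0.05 there were 3 of 10, beside 21.0% of all probe sets. No member separated the groups, where 0.969% of all probe sets lay wholly higher and 1.49% wholly lower on OVX arrays after quantile normalization. The largest difference was that of Gabra3, at 0.47 (SE 0.19, 95% interval 0.06 to 0.87, adjusted p = 0.186). Gabrb1 had −0.27 (SE 0.09, interval −0.47 to −0.07, adjusted p = 0.140) and the main Gabrb2 probe set 0.24 (SE 0.09, interval 0.03 to 0.44, adjusted p = 0.183).

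Gabra5 differed by −0.14 (interval −0.38 to 0.09) and Gabra4 by 0.07 (interval −0.24 to 0.38). For Gabrd the main probe set gave 0.23 (interval −0.14 to 0.61). The interval of Gabra2, the widest of the main probe sets, was −0.76 to 0.13 around −0.32. Its lowest OVX value, 8.20, was on the array OVX-1, which stood apart in Gabra6. After quantile normalization, the median of 6 thalamus markers ran over 8.05 to 10.47 (median 9.74) on OVX arrays and 8.09 to 9.02 (median 8.16) on Intact-named arrays. The beta-actin 3′ over 5′ difference averaged 1.96 ± 0.29 on OVX arrays and 2.54 ± 0.62 on Intact-named arrays (SD, n = 6 each). Their part in these differences was not tested.

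Among partner genes, 2 of 20 tested genes of receptor anchoring, trafficking and auxiliary proteins passed as lower on OVX arrays, and none as higher. Of all probe sets, 1.44% passed in either direction. At an unadjusted p under 0.05 by limma there were 5 of the 20, beside 21.0% of all probe sets. Akap5, a scaffold that holds protein kinase A near synaptic receptors, was 6.41, 7.15, 7.12, 6.62, 6.54 and 7.21 on OVX-1 to OVX-6. On Intact-1 to Intact-6 it was 7.97, 8.03, 7.90, 7.72, 8.12 and 7.86, so that all OVX arrays were lower. The difference was −1.09 (SE 0.14, limma adjusted p = 0.0159). Shisa7, an auxiliary subunit that in mice speeds GABA-A receptor gating, was 8.58 to 9.05 on OVX arrays (median 8.83) and 9.25 to 9.53 on Intact-named arrays (median 9.34). It differed by −0.54 (SE 0.07, adjusted p = 0.0166), with no overlap. Without the array OVX-4, which had the highest dopamine neuron markers of its set, no probe set on the array passed, and the adjusted p-values were 0.0543 for Akap5 and 0.0552 for Shisa7. Striatum markers were lower in OVX arrays in 6 of 6 (median −0.68, 4 at an unadjusted p under 0.05), as were 10 of 12 cortex and hippocampus markers (median −0.19, 4 at that p). Thalamus markers were higher in 6 of 6 (median 1.21). Their part in the values of Akap5 and Shisa7 was not tested. The other runs were taken as normalized apart. Their deposited signals, on OVX/ADX and number-named arrays, were 5.96 to 7.22 for Akap5 and 6.99 to 7.72 for Shisa7.

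Of the other GABA-A subunits, 9 of 12 listed had a probe set and 7 were tested. None passed in any of the 10 comparisons by limma, and at an unadjusted p under 0.05 there was 1 for mating on OVX arrays and 1 for OVX against Intact-named arrays. All 7 had a positive difference in OVX against Intact-named arrays, with a median of 0.16, beside −0.001 over all probe sets. The difference of Gabra6, 0.93, came with OVX-1 at 8.18, where the other OVX arrays had 4.48 to 4.94. On these arrays Gabrr1 lay between percentiles 13.3 and 23.2 and Gabrg3 between 7.83 and 13.6, so that their signals may be background. The smallest p was that of Gabrr1, a retinal ρ subunit, at 0.34 (SE 0.11, adjusted p = 0.111). The other Gabrr1 probe set differed by −0.04. Across runs, Gabrg1 (γ1), a neighbour of Gabra2, Gabra4 and Gabrb1 on chromosome 14, was 9.13 to 9.62 on OVX/ADX and number-named arrays and 5.94 to 6.87 on OVX and Intact-named arrays. Of 7 chloride transport genes and 4 tested neurosteroid synthesis genes, none passed in any comparison. Among them, Car2, a carbonic anhydrase that supplies bicarbonate, differed by 0.35 in OVX against Intact-named arrays (adjusted p = 0.136). For paced mating on number-named arrays, Tspo, a mitochondrial protein linked to cholesterol import, had −0.24 (adjusted p = 0.301), and Akr1c14, which makes allopregnanolone from dihydroprogesterone, had −0.32 (adjusted p = 0.356).

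Paced mating was compared with chamber exposure within each set. No member passed in any set, nor over the 12 intact arrays or all 24 arrays with the set as a term. Of all probe sets, 0.0444% passed on number-named arrays, 0.0148% on Intact-named arrays and 0% on OVX arrays, OVX/ADX arrays, the 12 intact arrays and the 24 arrays. At an unadjusted p under 0.05 the members counted 4 of 10 on number-named arrays, 1 on Intact-named, 1 on OVX and 0 on OVX/ADX arrays, beside 9.33%, 8.0%, 2.42% and 2.47% of all. Over the 12 intact arrays there was 1 and over the 24 arrays 2, beside 7.72% and 4.19% of all. Each group within a set held 3 arrays, which limits the precision. The fits over the 12 intact and the 24 arrays take all arrays as independent, which the labels do not show. The mating labels are those of the submitters and were not checked by any gene here.

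On number-named intact arrays 9 of 10 probe sets were higher in paced rats, with a median of 0.24, beside 0.01 over all probe sets. On the same arrays all 7 anterior pituitary markers were lower in rats labelled paced (median −2.20, 7 at an unadjusted p under 0.05 and 1 called), and so were all 11 dopamine neuron markers (median −0.39). Thalamus markers were higher in 6 of 6 (median 0.29). So were 11 of 12 cortex and hippocampus markers (median 0.18) and all 7 markers of neurons in general (median 0.15). Their part in the differences below was not tested. Gabrd had the largest differences. Its main probe set was 8.79, 8.89 and 8.92 on paced arrays and 8.05, 8.55 and 8.74 on chamber-exposed arrays, which did not overlap. The difference was 0.42 (SE 0.16, adjusted p = 0.481). The second Gabrd probe set was 8.41, 8.65 and 8.72 on paced arrays and 7.47, 7.96 and 8.44 on chamber-exposed arrays, a difference of 0.64 (SE 0.22, adjusted p = 0.429) with a small overlap. The third gave −0.01 (SE 0.07).

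Gabra3 was 7.81, 8.09 and 8.14 on paced number-named arrays and 7.72, 7.78 and 7.80 on chamber-exposed ones, a difference of 0.25 (SE 0.09, adjusted p = 0.472). Gabra4 was 8.28, 8.66 and 8.73 on paced and 8.0, 8.32 and 8.33 on chamber-exposed arrays, a difference of 0.34 (SE 0.14, adjusted p = 0.500). The groups of Gabra4 overlapped. Non-overlap held for 2 of 10 members (Gabra3 and the main Gabrd probe set), where 15.4% of all probe sets did not overlap in either direction.

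The positive differences of Gabra2 (0.24) and Gabra5 (0.20) on number-named arrays came with a single array. Paced array 2543 had Gabra2 at 10.27 and Gabra5 at 10.51, against 9.42 and 9.61 for Gabra2 and 9.86 and 9.90 for Gabra5 on the other paced arrays. The same array had the highest cortex and hippocampus markers of its set, at the 65.2nd percentile, where the other 5 lay between the 49.9th and 52.7th. Without it the differences were −0.011 and −0.014. The chamber-exposed array 2526 had the lowest Gabrd on both its main and second probe sets and also the lowest thalamus markers of the set, at the 79.6th percentile. Without it the difference of the main Gabrd probe set was 0.22 in place of 0.42.

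On Intact-named arrays 4 of 10 probe sets were higher in paced rats. Gabra5 was 11.26, 11.41 and 11.45 on paced arrays and 11.48, 11.74 and 11.95 on chamber-exposed arrays, a difference of −0.35 (SE 0.13, adjusted p = 0.589). This was the only member whose groups did not overlap, where 13.9% of all probe sets did not. Gabra3 differed by −0.46 (SE 0.27) and Gabra4 by −0.38 (SE 0.23), and their arrays overlapped.

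On OVX arrays 4 of 10 probe sets were higher in paced rats and no member separated the groups, where 6.29% of all did. Gabra2 was 8.20, 8.63 and 9.27 on paced arrays and 9.05, 9.27 and 9.69 on chamber-exposed arrays, a difference of −0.64 (SE 0.28, interval −1.29 to 0.02), and its adjusted p was 1.00 by limma. Only 0.540% of all probe sets had a difference of that size or more. The lowest Gabra2 value was again that of OVX-1, and without this array the difference was −0.39.

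On OVX/ADX arrays 8 of 10 probe sets were higher in paced rats and none separated the groups, where 6.78% of all did. The differences ran from −0.21 for Gabra2 to 0.26 for the second Gabrd probe set. Paced array 4123 had the highest Gabra4 (9.20), main Gabrb2 (11.81) and main Gabrd (9.73) of the set and the highest thalamus markers, at the 93.5th percentile, with the lowest dopamine neuron markers, at the 67.7th. Without it, Gabra4 and the main Gabrd probe set gave −0.20 and −0.14 in place of 0.11 and 0.17.

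The main Gabrd probe set had a positive mating difference in each of the 4 sets (0.17 on OVX/ADX, 0.42 on number-named, 0.23 on OVX and 0.22 on Intact-named arrays). Leaving out single arrays moved each of these values, over −0.14 to 0.38 on OVX/ADX and 0.22 to 0.57 on number-named arrays. Without OVX-5 or OVX-6 the OVX difference was 0.03 or 0.13, and without OVX-1 or OVX-4 it was 0.39 or 0.36. Without Intact-5 or Intact-4 the Intact-named difference was 0.03 or 0.05, and without Intact-1 or Intact-6 it was 0.43 or 0.46. Thalamus markers were higher in rats labelled paced in 5 of 6 on OVX/ADX arrays (median 0.12), in 6 of 6 on OVX arrays (median 0.44) and in 3 of 6 on Intact-named arrays (median −0.02). Over the 24 arrays they were higher in 6 of 6 (median 0.20). Striatum markers were higher in 6 of 6 as well over the 24 arrays (median 0.24), on OVX (median 0.22) and on Intact-named arrays (median 0.56). They were higher in 4 of 6 on number-named (median 0.01) and in 3 of 6 on OVX/ADX arrays (median −0.003). The part of either list in the Gabrd differences was not tested. The main Gabrd probe set itself had 0.26 over the 24 arrays (SE 0.12, adjusted p = 0.969), and the second Gabrd probe set had 0.39 (SE 0.14, adjusted p = 0.969), larger than all but 0.303% of probe sets. The third gave −0.01. Gabra5 had −0.13 (SE 0.09) and the main Gabrb2 probe set 0.13 (SE 0.07) over the 24 arrays.

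**Figure D3:**
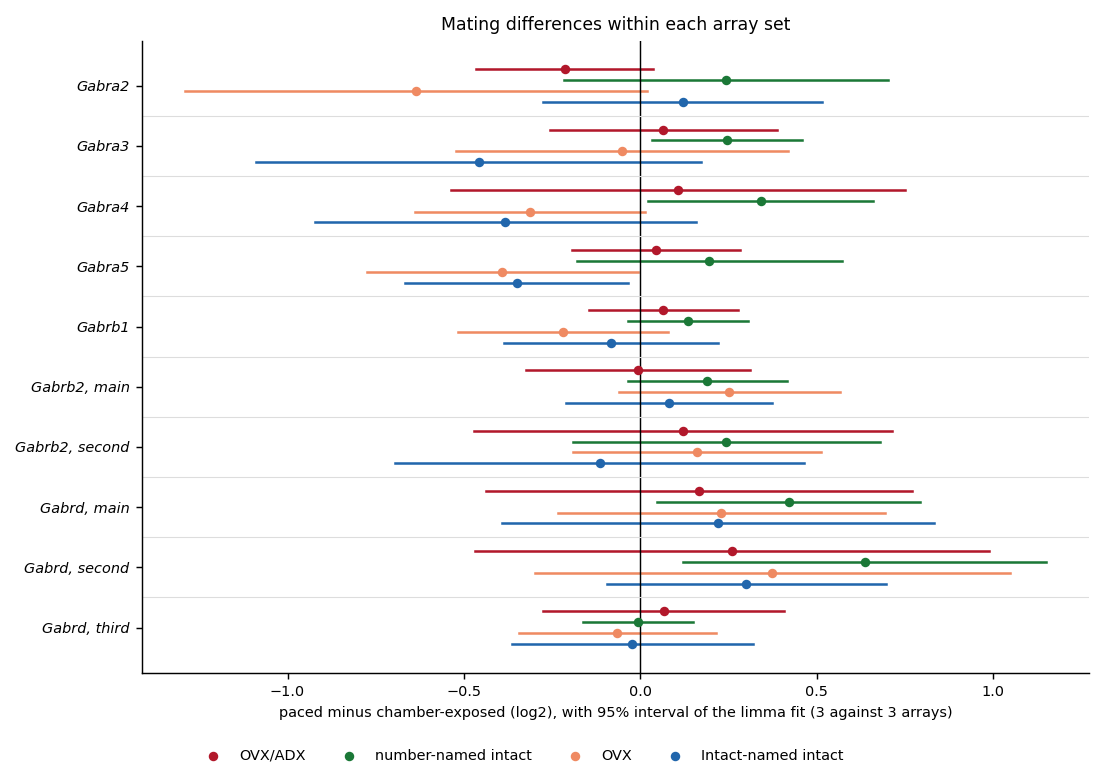
Paced minus chamber-exposed log2 difference (horizontal axis) for each GABA-A subunit probe set (vertical axis) in the 4 array sets, with points for limma estimates from 3 against 3 arrays and lines for 95% intervals. The main and second Gabrd probe sets lie above 0 in each set, and no difference passed the adjusted threshold.

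Whether the mating difference itself varied between sets was tested in limma. For number-named minus Intact-named arrays, all 10 probe sets had a positive value, with a median of 0.28, beside −0.005 over all probe sets. None passed, where 0.0703% of all did, with 3 of 10 at an unadjusted p under 0.05 beside 11.8% of all. The smallest adjusted p was 0.345 for Gabra5, at 0.55 (SE 0.23). Gabra4 had 0.72 (SE 0.34) and Gabra3 0.70 (SE 0.31). In this contrast, markers of neurons in general were positive in 7 of 7 (median 0.13) and thalamus markers in 6 of 6 (median 0.26). Cortex and hippocampus markers were positive in 9 of 12 (median 0.12). Negative values held for 7 of 7 anterior pituitary (median −2.27), 9 of 11 dopamine neuron (−0.54), 5 of 7 hypothalamus (−0.59) and 5 of 6 striatum markers (−0.66). Their part in the member values was not tested. Of the members, none passed for the mating by OVX interaction within the shared run (0.0074% of all probe sets) or for OVX/ADX minus OVX (0%), with 0 of 10 at an unadjusted p under 0.05 in each. The largest interaction was that of Gabra2, at −0.76 (SE 0.36, adjusted p = 0.992).

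Array by array, some members varied together, and 5 of the 21 pairs had a negative correlation. With each signal centred on the mean of its set, Gabra5 and Gabrb1 moved together (Pearson r = 0.79 over 24 arrays, as a description), as did Gabrb2 and Gabrd (r = 0.74), Gabra3 and Gabra4 (r = 0.66) and Gabra4 and Gabrd (r = 0.65). The last pair had r = 0.99 on OVX/ADX, 0.87 on number-named, 0.00 on OVX and 0.53 on Intact-named arrays. Gabra5 and Gabrb2 ran against each other (r = −0.40), Gabrb2 had r = −0.26 with each of Gabra2 and Gabrb1, and Gabrd had −0.24 with Gabra5 and −0.06 with Gabrb1. The main and second Gabrd probe sets had r = 0.91, the main and the third 0.68, and the Gabrb2 probe sets 0.60. Arrays of a set share a run, so these values are not independent evidence of a relation between genes.

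Gabrd was followed most closely by Lpcat4 (r = 0.91), a lysophospholipid acyltransferase, Gabbr2 (r = 0.90), a GABA-B receptor subunit, and Rora (r = 0.90), a nuclear receptor that is also one of the thalamus markers used here. Gabra4 was followed by Ndrg4 (r = 0.93). Gabra5 was followed by Cpne6 (r = 0.91), a calcium-binding copine of forebrain neurons, which was also second for Gabrb1 (r = 0.83) after Lancl2 (r = 0.87). The nearest gene was Grm7 for Gabra3 (r = 0.84), a metabotropic glutamate receptor, Vma21 for Gabra2 (r = 0.87) and Rap1gap for Gabrb2 (r = 0.87). These were the highest of 13078 genes compared.

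The main Gabrd probe set tracked the median of the thalamus markers within 3 of the 4 sets. The correlation over 6 arrays was 1.00 on OVX/ADX, 0.94 on number-named and 0.85 on OVX arrays. It was −0.76 on Intact-named arrays, where the markers lay between percentiles 64.0 and 77.3. Without the array farthest from the median of the markers in each set it was 0.99, 0.62, 0.83 and −0.77. Array 4123 had the highest markers and Gabrd of the OVX/ADX arrays, and OVX-5 those of the OVX arrays, with Gabrd at 10.04. OVX-6 had the lowest thalamus markers of the OVX arrays, at the 63.4th percentile, with Gabrd at 9.21, the lowest of its set. The pairs described here were picked after the data were seen. On OVX/ADX arrays the main Gabrd probe set also had r = 0.93 with cortex and hippocampus markers and −0.88 with dopamine neuron markers. With striatum markers it had r = 0.72 on Intact-named arrays, beside −0.08 on OVX/ADX, −0.23 on number-named and −0.11 on OVX arrays. With thalamus markers, Gabra4 had r = 0.99 on OVX/ADX arrays, and the third Gabrd probe set had −0.12 on number-named arrays. Gabra2 tracked the markers of cortex and hippocampus, with r = 0.98 on number-named, 0.90 on OVX and 0.95 on Intact-named arrays and 0.01 on OVX/ADX arrays. Without array 2543 the value on number-named arrays was 0.49, and without array 4123 that on OVX/ADX arrays was 0.74. Without OVX-6 and without Intact-1 the values were 0.83 and 0.88.

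**Figure D4:**
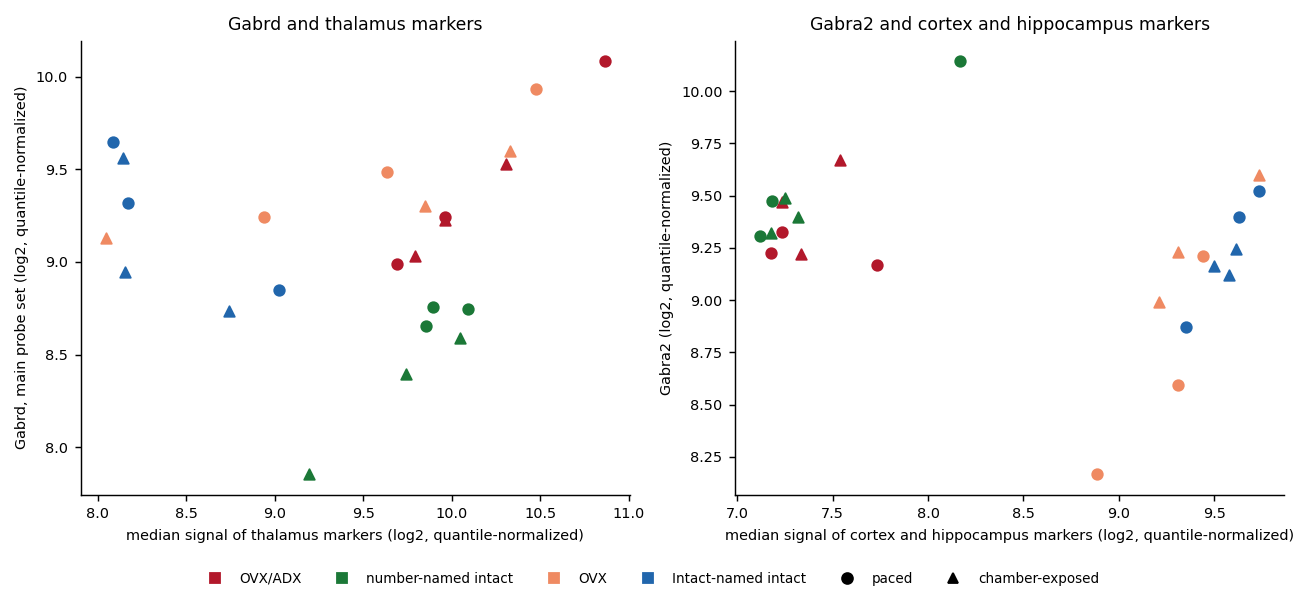
Quantile-normalized log2 signal of the main Gabrd probe set against the median of thalamus markers (left) and of Gabra2 against the median of cortex and hippocampus markers (right), with 1 point per array, coloured by set. Gabrd is high where thalamus markers are high on OVX/ADX, number-named and OVX arrays, but not on Intact-named arrays.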

How the data were processed

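RNA of tissue labelled midbrain was measured on 24 arrays. The authors deposited log2 signals, for which the submitters' processing notes list RMA and Affymetrix Expression Console 1.4. GCRMA is the method that the paper gives. The signals were used as deposited. The lowest signal per array fell in 3 separate ranges, taken here as 3 normalization runs, so that tests stayed within a run or took the set as a term.

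Of 31099 probe sets, 57 controls were left out and the 27035 at or above the 20th percentile in at least 3 arrays were kept. Comparisons used limma 3.58.1 (lmFit and eBayes) in R 4.3.3, two-sided, with Benjamini-Hochberg adjustment over all probe sets kept and a threshold of 0.05. The fits were tested on simulated data. The number of arrays limits the precision. The members were named by the rule of every probe set with that 1 symbol. Other GABA-A genes were named by smallest p from fixed lists, and likeness by the highest Pearson r. Members and lists were chosen with earlier results of these data known. Alternatives covered the filter, scaling, eBayes options, a plain test, the fit of 24 arrays, the mating term, a replicate block and leaving out arrays. Marker correlations were added after the data were seen.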

Additional observations from a re-analysis of the deposited data

Results flagged for a closer look

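Within each set of 6 arrays, the gap of the highest or lowest array to its nearest neighbour was set against the range (Dixon's ratio at its 95% critical value), and 3 of the 40 combinations of probe set and array set exceeded it. Chance flags about 1 in 20 such groups. Array 2543 stood apart on the number-named arrays for Gabra2, at 10.27 with the next array at 9.61, and for Gabra5, at 10.51 with the next at 9.92. It is the array with the highest cortex and hippocampus markers of its set. On OVX arrays, OVX-6 was low for the main Gabrb2 probe set, at 11.35 with the next at 11.76, and it had the lowest thalamus markers of its set. Whether the regional makeup of these arrays has a part in their values was not tested.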

How the results depend on the processing

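No member passed under any alternative in any of the 10 comparisons. Of 566 values of single genes under alternatives, 539 kept their direction and side of the threshold. The calls of Akap5 and Shisa7 were lost without OVX-4 (adjusted p = 0.0543 and 0.0552), and their adjusted p-values ran over 0.00970 to 0.0543 and 0.0113 to 0.0552. Signs reversed for 25 small differences of members, as follows. By another probe set, the mating difference of Gabrd was −0.0055 on number-named, −0.065 on OVX and −0.023 on Intact-named arrays, and that of Gabrb2 0.12 on OVX/ADX and −0.12 on Intact-named arrays. On OVX/ADX arrays the mating difference of Gabrb2 was 0.0065 after quantile normalization and 0.15 without arrays 2541 and 2530. Leaving out each array in turn, mating differences on OVX/ADX arrays ran over −0.062 to 0.17 (Gabra3), −0.20 to 0.36 (Gabra4), −0.027 to 0.13 (Gabra5), −0.16 to 0.10 (Gabrb2) and −0.14 to 0.38 (Gabrd). Those on number-named arrays ran over −0.011 to 0.42 (Gabra2) and −0.014 to 0.31 (Gabra5). On OVX arrays Gabra3 ran over −0.26 to 0.16, and on Intact-named arrays Gabra2 over −0.0072 to 0.31 and Gabrb2 over −0.010 to 0.14. OVX against Intact-named arrays gave Gabra4 −0.0069 to 0.18. The causes were not tested.

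As deposited, 5 members in place of 2 did not overlap between OVX/ADX and number-named arrays, in the other direction, where 62.4% of all probe sets lay wholly lower. Leaving out arrays gave 2 to 3 there, 7 to 8 in the intact pair and 5 between OVX/ADX and OVX arrays. Intact-named and OVX arrays of the same title number had r of deviations of 0.018 to 0.31 over 6 pairs, 2 above 0.1. These values do not settle whether the numbers pair the arrays. With the replicate block, 0 members passed in OVX against Intact-named arrays and 0 in the interaction, and Gabrb1 stayed at −0.27.

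Counts over all probe sets moved more. OVX against Intact-named arrays gave 388 calls, 84 by the plain test, 0 without OVX-4, 27 and 33 without Intact-2 and Intact-3, 88 to 253 without Intact-1, OVX-1, OVX-2, OVX-3 or OVX-5. Mating on number-named arrays gave 12 (0 by the plain test, 4 after quantile normalization, 5 with the 50th percentile filter, 19 with medians subtracted, 20 in the fit of 24 arrays, 2 to 58 without each array). Its difference from Intact-named arrays gave 19, and 8 to 582 without each array. On Intact-named arrays it gave 4 (0 by the plain test, 597 in the fit of 24 arrays, 1 to 15 without each array). Signals carry no detection calls, so that low values have no bound.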
